A study of Mus musculus with 7 samples.

Results

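The insulin-like growth factor (IGF) system was examined in mouse uterine tissue through 10 genes, chosen by gene symbol from the 23282 rows of the expression tables. They are the 2 ligands Igf1 and Igf2, the 2 receptors Igf1r and Igf2r, and the 6 binding proteins Igfbp2, Igfbp3, Igfbp4, Igfbp5, Igfbp6 and Igfbp7. Each gene had 1 row in every table, and all 10 passed the filters on low values and were tested. The tissue came from C57BL/6 females, 6 weeks old at the start, in which 100 ng of recombinant human CXCL12, a chemokine, in 30 µl of saline was infused into one uterine horn and saline into the opposite horn. The question behind the design was how gene expression in the uterus differs after exposure to this chemokine. Whole uterine tissue was sequenced from the 3′ ends of its mRNA (QuantSeq) in 7 libraries, of which 2 were saline-treated, 2 were CXCL12-treated and taken at Day 3, and 3 were CXCL12-treated and taken at Day 8. The day on which the saline libraries were taken is not in the labels. Neither the labels nor the methods say which libraries came from the same animal, so the p-values below measure only the spread between these libraries. The methods describe no synchronization of the estrous cycle for these tissues.

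IGF-1 and IGF-2 are secreted peptides that signal for growth and survival through the receptor tyrosine kinase encoded by Igf1r, whereas the protein of Igf2r takes up IGF-2 and carries it to lysosomes. The binding proteins hold the ligands outside the cell, prolong their life in tissue fluid and limit or direct their access to the receptor, and proteases release the ligands from them. In the rodent uterus, Igf1 is made by stromal and muscle cells under estrogen and acts on the epithelium, and IGF-binding proteins change through the cycle and around implantation.

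Levels are given as CPM, counts scaled to the size of the library, after TMM, a method that corrects for differences in RNA composition between libraries. Because QuantSeq reads come from the 3′ ends of transcripts, these levels are set against each other between genes without dividing by length. The counts include multiple alignments, so 1 count need not be 1 transcript, and comparisons between genes are approximate. The 6 count tables held between 6908790 and 12308982 counts, and Day 3 replicate 1, deposited on a log2 scale, was brought to the same scale. A gene with 3 counts had between 0.247 and 0.368 CPM, a floor that covers counting error alone. All 6 uterine markers (Hoxa10, Hoxa11, Esr1, Pgr, Emx2 and Msx1) were above 0 in every library. The table of Day 8 replicate 1 carries Day 3 in its name, and that library was placed by its sample label. Over the 10 genes, its mean absolute difference was 0.49 and 0.53 on the quantile-normalized log2 scale from the Day 3 libraries, 0.61 and 0.50 from the saline libraries, and 1.05 and 1.15 from the other Day 8 libraries. Day 8 replicates 2 and 3 differed from each other by 0.36. Over all genes on that scale, replicate 1 differed by 0.51 and 0.50 from the Day 3 libraries and by 0.84 and 0.54 from the saline libraries. It differed by 0.75 and 0.73 from the other Day 8 libraries, which differed from each other by 0.48. The Day 8 fold changes of the 10 genes are given with and without replicate 1. Replicate 1 stood apart over these same 10 genes, so the values without it are a description.

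The positions of the genes are those of GENCODE M21 on GRCm38 (mm10), the mouse build named in the submitters' processing notes. Igf1 lies at chr10:87858265-87937042 on the plus strand, Igf1r at chr7:67952827-68233668 on the plus strand, and Igfbp3 at chr11:7206086-7213923 on the minus strand. Igfbp3 is separated by 3539 bases from Igfbp1, and Igfbp2 by 5457 bases from Igfbp5, in both cases on opposite strands. Igf2 at chr7:142650766-142666816 and the noncoding RNA gene H19, both on the minus strand of an imprinted domain, are separated by 72622 bases. Igf2r at chr17:12682406-12769664 shares 28354 bases of its span with the antisense gene Airn, but no exonic base. The exons of Igf2 share 3596 bases with those of the gene model Gm49394, annotated as protein-coding, on the same strand. They share 98 bases with those of Igf2os on the opposite strand. Reads of Igf2 may therefore be shared with Gm49394, for which no row of that name was found.

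The 250 bases in front of the annotated RefSeq start (GRCm38.p6) are shown for the most abundant ligand, Igf1, and for Igf1r and Igfbp3, the members that passed the cutoffs in at least 1 comparison. They are written 5′ to 3′ on the strand of the gene, and capitals mark GGTCA or its reverse complement TGACC, the half-site of the estrogen response element. The windows are chr10:87860861-87861110 for Igf1, chr7:67952007-67952256 for Igf1r and chr11:7213924-7214173 for Igfbp3.
Igf1: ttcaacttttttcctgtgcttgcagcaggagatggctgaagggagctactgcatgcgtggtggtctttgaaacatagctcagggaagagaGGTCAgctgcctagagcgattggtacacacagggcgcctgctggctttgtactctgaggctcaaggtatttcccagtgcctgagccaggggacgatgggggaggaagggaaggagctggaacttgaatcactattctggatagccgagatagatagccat
Igf1r: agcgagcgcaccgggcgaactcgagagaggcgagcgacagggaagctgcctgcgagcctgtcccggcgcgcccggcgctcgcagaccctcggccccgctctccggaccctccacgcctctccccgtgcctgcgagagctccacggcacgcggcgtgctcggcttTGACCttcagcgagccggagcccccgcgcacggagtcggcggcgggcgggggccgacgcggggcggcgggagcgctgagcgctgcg
Igfbp3: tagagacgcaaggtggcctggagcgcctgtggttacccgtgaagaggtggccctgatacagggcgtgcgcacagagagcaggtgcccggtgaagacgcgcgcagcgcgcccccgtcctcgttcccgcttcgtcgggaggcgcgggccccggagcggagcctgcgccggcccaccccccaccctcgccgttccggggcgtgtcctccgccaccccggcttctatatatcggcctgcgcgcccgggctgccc
Igf1 and Igf1r each had 1 match in these 250 bases, which were the stretch searched, and Igfbp3 had none. The half-site was present in 8 of the 14 RefSeq promoters of the 10 genes and in 35.2% of all 32851 promoters in the table. Igf2 and Igfbp2 had more than 1 of these promoters. The GC box GGGCGG was searched on both strands as well and was present in 6 of the 14 and in 32.7% of all. The steroid receptor half-site AGAACA was present in 2 of the 14 (16.1% of all) and the TATA box TATAAA in 2 (12.4%). The FOXO core GTAAACA was present in 0 of the 14 (3.17% of all). GC content was 52.8% for Igf1, 77.6% for Igf1r and 73.2% for Igfbp3, and the median over all promoters was 52.4%. These matches describe the letters of the windows and are not evidence of binding.

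The binding proteins made up the larger part of the IGF transcripts. Igfbp7, a secreted protein of low affinity for IGF that is abundant in vessel walls and stroma, ranked first of the 10 genes in all 7 libraries. It took 37.8% and 46.1% of the summed CPM of the 6 binding proteins in the saline libraries, 51.2% and 47.7% at Day 3, and 49.4%, 57.5% and 54.3% at Day 8. Igf1, Igfbp4 and Igfbp5 followed in every library. Igfbp2 was last of the 10 genes and Igf2 was ninth in every library, so that Igf1 exceeded Igf2 between 23.3-fold and 243-fold. Igfbp3 was the member whose place moved most, from seventh or eighth in the saline libraries, the Day 3 libraries and Day 8 replicate 1 to the fifth in Day 8 replicates 2 and 3.

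**Figure D1:**
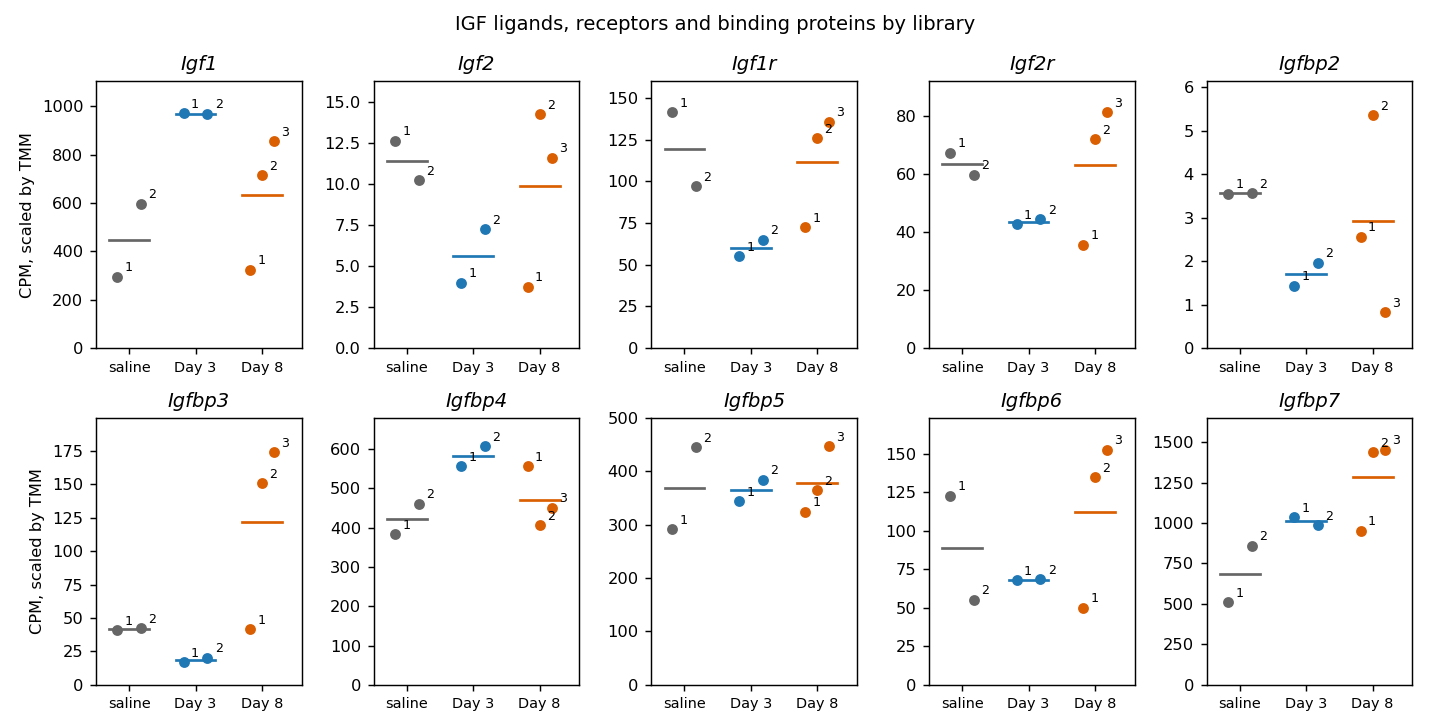
Level of each IGF gene in CPM scaled by TMM (linear axes from 0) in the saline, Day 3 and Day 8 libraries. Points are libraries, numbered by replicate, and lines are group means of 2, 2 and 3 libraries. Igfbp3 is lowest at Day 3 (17.1 and 20.3 CPM) and highest in Day 8 replicates 2 and 3 (151 and 174 CPM), and Day 8 replicate 1 (41.8 CPM) lies with the saline libraries.

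At Day 3, the IGF-1 receptor transcript was lower and the Igf1 ligand transcript was higher than in the saline libraries, with no overlap of the groups for either. Igf1r was the 1 member of 10 that passed the study's fold-change and P cutoffs (at least 2-fold, with an unadjusted P under 0.05), and 4.64% of all 14800 genes passed them. The study's methods also name a false discovery rate of 0.1, which Igf1r did not meet. In limma, after Benjamini-Hochberg adjustment over all genes, there were 0 of 14800 genes (0%) under an adjusted p of 0.1, with a smallest adjusted p of 0.62, and 1110 genes had an unadjusted P under 0.05. In CPM, 8 of the 10 members had Day 3 libraries that did not overlap the saline libraries, beside 48.7% of all genes tested. The median log2 fold change of the 10 members was -0.47, with 3 positive and 7 negative, and the median of all genes was 0.01.

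Among the ligands, Igf1 measured 295 and 596 CPM in the saline libraries and 970 and 969 CPM at Day 3. Both Day 3 libraries lay above both saline libraries, which differed from each other by more than the Day 3 libraries did. The log2 difference of Igf1 in limma was 0.85 ± 0.48 (SE), with an adjusted p of 0.62. Without saline replicate 1, the lower of the saline libraries, it was 0.37 and missed the cutoffs, and without saline replicate 2 it was 1.36 and passed them, with an adjusted p of 0.17 in a range of 0.17 to 1.00 over the alternatives (limma or edgeR). Igf2 was far scarcer, at 12.6 and 10.2 CPM in the saline libraries and 3.99 and 7.25 CPM at Day 3. Its Day 3 libraries were both below the saline libraries, and the limma log2 difference was -0.99 ± 0.60 (SE), with an adjusted p of 0.62.

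Among the receptors, Igf1r measured 141 and 97.2 CPM in the saline libraries and 55.1 and 65.1 CPM at Day 3. The groups did not overlap, and the limma log2 difference was -1.07 ± 0.37 (SE), with an adjusted p of 0.62. Without saline replicate 1, the higher of the saline libraries, the difference was -0.74, and without Day 3 replicate 1 or 2 it was -0.93 or -1.18, and in each of these fits it missed the cutoffs (limma, adjusted p between 0.97 and 1.00). Over all alternatives run, the adjusted p of Igf1r ranged from 0.086 to 1.00 (limma or edgeR). Igf2r was at 67.3 and 59.7 CPM in the saline libraries and at 42.7 and 44.5 CPM at Day 3. These groups did not overlap either, and the limma log2 difference was -0.58 ± 0.40 (SE), with an adjusted p of 0.64. The antisense transcript Airn, which shares part of the span of Igf2r, was at 37.5 and 19.8 CPM in the saline libraries and at 15.1 and 13.97 CPM at Day 3.

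The ratio of Igf1 to Igf1r within a library combines these differences. It was 2.09 and 6.14 in the saline libraries, 17.6 and 14.9 at Day 3, and 4.48, 5.68 and 6.31 at Day 8. The Day 3 ratios lay above all others, which follows from Igf1 being highest and Igf1r lowest in these libraries and is no separate observation. The Day 8 ratios were all above the lower saline ratio, with replicate 3 above both. With 2 libraries against 2, the ratio was not tested.

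Among the binding proteins, Igfbp3, the main carrier of IGF in blood and also made by uterine stroma and vessels, was at 40.7 and 42.2 CPM in the saline libraries and at 17.1 and 20.3 CPM at Day 3. The groups did not overlap, but the limma log2 difference of -1.13 ± 0.61 (SE) missed the cutoffs, with an adjusted p of 0.62. In limma on the saline and Day 3 libraries alone the difference was -1.15, past the cutoffs, with an adjusted p of 0.52 in a range of 0.41 to 1.00 over the alternatives. Igfbp2, the scarcest member, was at 3.56 and 3.57 CPM in the saline libraries and at 1.44 and 1.97 CPM at Day 3, with a limma log2 difference of -0.85 ± 0.73 (SE) and an adjusted p of 0.69. Igfbp4, which blocks IGF action until the protease PAPP-A cleaves it, was at 384 and 461 CPM in the saline libraries and at 557 and 607 CPM at Day 3. Its CPM groups did not overlap, and the limma log2 difference after quantile normalization was 0.14 ± 0.21 (SE), with an adjusted p of 0.82. Igfbp7 had 512 and 861 CPM in the saline libraries and 1037 and 986 CPM at Day 3, groups that overlapped once the values were quantile-normalized, with a limma log2 difference of 0.16 ± 0.33 (SE) and an adjusted p of 0.87. Igfbp5, a matrix-bound binding protein, and Igfbp6, which prefers IGF-2, had overlapping groups, with limma log2 differences of -0.30 and -0.36.

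The scale of the Day 3 comparison depended on the normalization. Without quantile normalization the median log2 difference of all genes was -0.26 rather than 0.01, and 10.2% of the genes past the cutoffs were higher at Day 3, where quantile normalization gave 42.9% (294 higher and 392 lower). On that scale, which was not recentred, Igf1 was at 0.96, Igf1r at -1.22 and Igfbp3 at -1.40, so that none of the 3 changed direction.

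**Figure D2:**
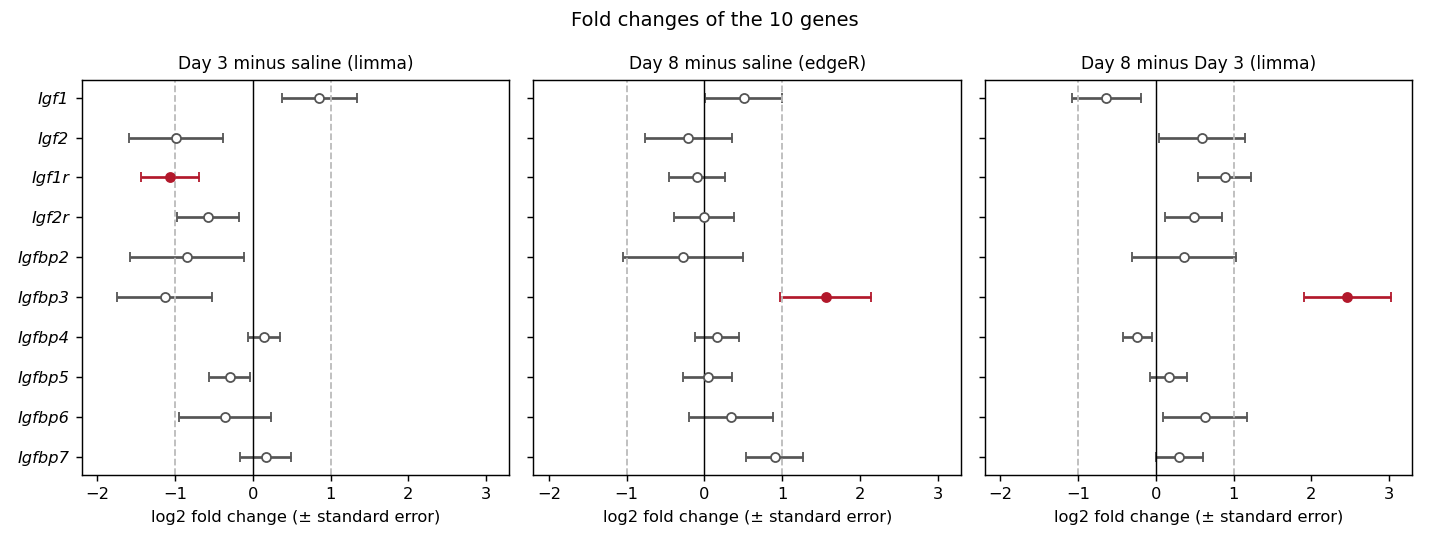
Log2 fold change of each IGF gene (horizontal axis, log2 scale) with its standard error as bars, for Day 3 against saline, Day 8 against saline and Day 8 against Day 3. Filled red points passed the cutoffs (at least 2-fold, the dashed lines, with an unadjusted P under 0.05), and these are Igf1r at Day 3 (-1.07) and Igfbp3 at Day 8 against saline (1.56) and against Day 3 (2.46).

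At Day 8, Igfbp3 was higher than in the saline libraries in 2 of the 3 libraries, and it was the 1 member of 10 that passed the cutoffs. All genes passed them at a rate of 2.94% (453 of 15388). In the edgeR quasi-likelihood fit, adjusted in the same way, 0 of 15388 genes (0%) had an adjusted p under 0.1, with a smallest adjusted p of 0.96, whereas 658 genes had an unadjusted P under 0.05 and DESeq2 gave 49 genes under the adjusted 0.1. In CPM, 1 of the 10 members, Igfbp7, had Day 8 libraries that did not overlap the saline libraries, beside 19.2% of all genes tested. The median log2 fold change of the members was 0.10, with 6 positive and 4 negative, beside -0.01 for all genes.

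Igfbp3 measured 41.8, 151 and 174 CPM in Day 8 replicates 1, 2 and 3, beside 40.7 and 42.2 CPM in the saline libraries. Replicate 1 lay between the saline libraries, and replicates 2 and 3 lay above both by more than the saline libraries differed. The edgeR log2 fold change was 1.56 ± 0.59 (SE), with an adjusted p of 0.96. Without Day 8 replicate 1 it was 1.97, with an adjusted p of 0.16, the lowest of a range that reached 1.00 over the alternatives (edgeR). That library stood apart over the IGF genes themselves. The adjusted p-values without it, here and for Igfbp7 below, are therefore a description and cannot be read as tests. The call was lost without Day 8 replicate 2 (1.38), Day 8 replicate 3 (1.22), saline replicate 1 (1.53) or saline replicate 2 (1.59), all by edgeR. As a share of the binding-protein transcripts, Igfbp3 made up 3.01% and 2.26% in the saline libraries, 0.84% and 0.98% at Day 3, and 2.17%, 6.03% and 6.49% at Day 8.

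Igfbp7 was at 953, 1439 and 1454 CPM at Day 8, all above the saline values of 512 and 861 CPM. Its edgeR log2 fold change of 0.90 ± 0.36 (SE) had an adjusted p of 0.96 and was less than 2-fold. Without Day 8 replicate 1 it was 1.08 and passed the cutoffs, with an adjusted p of 0.44 (edgeR), and without saline replicate 2 it was 1.33 and passed them, with an adjusted p of 0.28 in a range of 0.28 to 1.00 over the alternatives. Without saline replicate 1 it was 0.57, below the cutoffs (edgeR). The value depended on the scale, since limma on quantile-normalized values gave 0.47, with saline and Day 8 libraries that overlapped.

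For the other binding proteins the Day 8 and saline libraries overlapped. Igfbp6 was at 49.9, 135 and 152 CPM at Day 8 and at 123 and 55.1 CPM in the saline libraries, with an edgeR log2 fold change of 0.34 ± 0.55 (SE) and an adjusted p of 0.96. Igfbp4 was at 556, 407 and 451 CPM at Day 8, and Igfbp5 at 324, 364 and 447 CPM, with edgeR log2 fold changes of 0.16 and 0.04. Without Day 8 replicate 1 the edgeR values were 0.70 for Igfbp6, 0.02 for Igfbp4 and 0.14 for Igfbp5, none past the cutoffs. These were the steadiest members: their ranges over the 7 libraries were 0.44 for Igfbp4 and 0.66 for Igfbp5 on the quantile-normalized log2 scale, wider than those of 3.72% and 13.9% of all genes. Igfbp2 was at 2.57, 5.36 and 0.83 CPM at Day 8, the last of these from 8 counts, and its edgeR log2 fold change was -0.28 ± 0.77 (SE), or -0.19 without replicate 1.

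The ligands and receptors at Day 8 were split in the same way by replicate 1. Igf1 was at 325 CPM in replicate 1 and at 715 and 856 CPM in replicates 2 and 3, with an edgeR log2 fold change of 0.50 ± 0.50 (SE) and an adjusted p of 0.96. For Igf1 it was 0.82 without Day 8 replicate 1, 0.22 without replicate 3, 0.08 without saline replicate 1 and 1.11 without saline replicate 2 (edgeR), and none of these passed the cutoffs. Igf2 was at 3.73, 14.3 and 11.6 CPM, Igf1r at 72.5, 126 and 136 CPM, and Igf2r at 35.6, 72.1 and 81.4 CPM. For all 4 genes replicate 1 had the lowest Day 8 level, and for Igf2, Igf1r and Igf2r it was below both saline libraries. The edgeR log2 fold changes were -0.20 ± 0.56 for Igf2, -0.10 ± 0.36 for Igf1r and -0.01 ± 0.39 for Igf2r (SE), and without replicate 1 they turned to 0.18, 0.14 and 0.27.

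Between the days, Igfbp3 was higher at Day 8 than at Day 3 in all 3 Day 8 libraries. It was the 1 member of 10 past the cutoffs, beside 4.54% of all 14800 genes, and again 0 genes (0%) had an adjusted p under 0.1 in limma, with 1049 under an unadjusted P of 0.05. The lowest Day 8 value of Igfbp3, 41.8 CPM, was above the highest Day 3 value, 20.3 CPM. The limma log2 fold change was 2.46 ± 0.56 (SE), with an adjusted p of 0.65. It passed the cutoffs in all 11 alternatives run, between 2.09 and 3.11, and the highest value was the one without Day 8 replicate 1. In CPM, 4 members (Igf1, Igf1r, Igfbp3 and Igfbp4) had groups that did not overlap between the days, beside 32.6% of all genes. The median log2 fold change of the members was 0.42, with 8 positive and 2 negative, and that of all genes was 0.00.

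Igf1r was higher at Day 8 than at Day 3 in all 3 libraries, with a limma log2 fold change of 0.89 ± 0.34 (SE) and an adjusted p of 0.70, less than 2-fold. Igf1 was lower at Day 8 in all 3 libraries, and its limma log2 fold change of -0.64 ± 0.44 (SE) had an adjusted p of 0.75 and was -0.22 without Day 8 replicate 1. Without Day 8 replicate 1, 4 members passed the cutoffs: Igfbp3, Igf1r at 1.18, Igf2 at 1.12 and Igfbp6 at 1.15, all by limma. Their adjusted p was then 0.0031 for Igfbp3, 0.0998 for Igf1r, 0.19 for Igf2 and 0.20 for Igfbp6 (limma). Day 8 replicate 1 stood apart over the IGF genes themselves, so these adjusted p-values are a description and cannot be read as tests. With all libraries the adjusted p was 0.65 for Igfbp3, 0.70 for Igf1r, 0.81 for Igf2 and 0.79 for Igfbp6 (limma). In the fit without Day 8 replicate 1, 1639 of 14709 genes passed the cutoffs, beside 672 of 14800 with all libraries. In that fit 468 genes had an adjusted p under 0.1. For the other members the limma log2 fold change between the days was 0.49 for Igf2r, 0.36 for Igfbp2, -0.24 for Igfbp4, 0.17 for Igfbp5 and 0.30 for Igfbp7. Without Day 8 replicate 1 these were 0.86, 0.26, -0.32, 0.29 and 0.56, and none passed the cutoffs. With all libraries, Igf2 was at 0.59 and Igfbp6 at 0.63 (limma). Over Igfbp3, Igf1r, Igf2 and Igfbp6 the adjusted p ranged from 0.0031 to 1.00 among all alternatives run. The lowest came from the fit without Day 8 replicate 1.

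In the order of group means, 7 members (Igf2, Igf1r, Igf2r, Igfbp2, Igfbp3, Igfbp5 and Igfbp6) were lowest at Day 3. For Igfbp5 the Day 3 and saline means were nearly equal (364 and 368 CPM). Of the 7 members, Igf1r and Igfbp3 had Day 3 levels that overlapped neither of the other groups. For Igf2, Igf2r and Igfbp2 the Day 3 levels overlapped those of Day 8, and for Igfbp5 and Igfbp6 those of both. Igf1 and Igfbp4 were highest at Day 3 without overlap with either group, although for Igfbp4 the highest Day 8 level (556 CPM) and the lowest Day 3 level (557 CPM) were nearly equal. The mean of Igfbp7 was lowest in saline (686 ± 247 CPM, SD, n = 2), followed by Day 3 (1012 ± 36.3 CPM, SD, n = 2) and Day 8 (1282 ± 285 CPM, SD, n = 3), with Day 3 and Day 8 levels that overlapped. Saline and Day 8 levels overlapped for every member except Igfbp7. Of all genes tested, 48.7% had Day 3 libraries that did not overlap the saline libraries in CPM, and 32.6% the Day 8 libraries. The share of all genes lowest at Day 3, or apart from both groups there, was not counted.

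**Figure D3:**
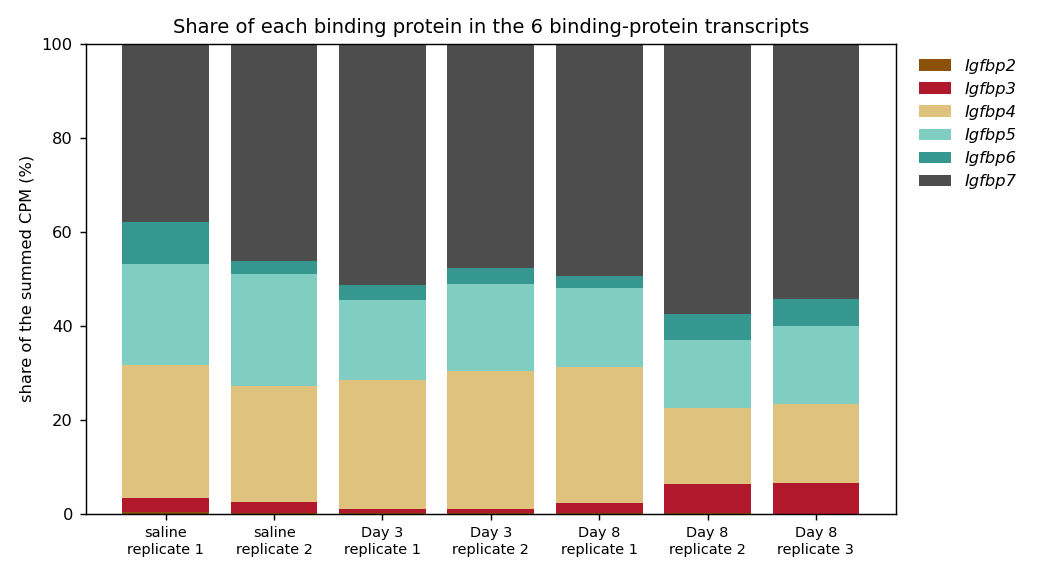
Share of each of the 6 binding proteins in their summed CPM (vertical axis, percent, bars stacked to 100) in each of the 7 libraries. Igfbp7 is the largest part in each bar, and the Igfbp3 part is 0.84% and 0.98% at Day 3 and 6.03% and 6.49% in Day 8 replicates 2 and 3.

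The wider pathway was described over 28 other genes in 3 lists, chosen by function. Of the 9 other carriers and proteases, 6 could be tested. Igfbp1, Igfbpl1 and Pappa2 were too low, and Igfbp1, the binding protein of the decidua and liver, was at 0 counts outside Day 8 replicates 2 and 3, which had 8 and 5 counts. Stc2, which encodes stanniocalcin-2, an inhibitor of the protease PAPP-A, was the 1 gene past the cutoffs, at Day 3 and between the days, where 4.64% and 4.54% of all genes passed them. It was at 5.52 and 16.02 CPM in the saline libraries, 31.2 and 27.2 CPM at Day 3, and 11.6, 8.41 and 7.87 CPM at Day 8. The Day 3 libraries lay above all 5 others. The limma log2 fold change was 1.65 ± 0.49 (SE) at Day 3 (adjusted p = 0.62) and -1.69 ± 0.45 (SE) for Day 8 against Day 3 (adjusted p = 0.65). At Day 3 it missed the cutoffs without saline replicate 1 (0.91) or Day 3 replicate 1 (1.55), and between the days it passed them in all 11 alternatives (limma or edgeR). Its relative Stc1 was at 52.1 and 40.7 CPM in the saline libraries and 20.8 and 29.2 CPM at Day 3, with a limma log2 fold change of -0.88 ± 0.30 (SE) and an adjusted p of 0.62, less than 2-fold. Pappa, the protease that cleaves Igfbp4 protein, was at 28.7 and 8.40 CPM in the saline libraries and at 5.42 and 6.73 CPM at Day 3. Htra1, a secreted serine protease that was the most abundant of the list, was at 94.7 and 67.5 CPM in the saline libraries, 78.7 and 82.3 CPM at Day 3, and 63.0, 46.9 and 32.1 CPM at Day 8.

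None of the 14 tested genes of the insulin receptor and intracellular signalling list passed the cutoffs in any of the 3 comparisons (0 higher and 0 lower in each), and Foxo3 was too low to test. All genes passed them at 4.64%, 2.94% and 4.54%, so that a count of 0 among 14 does not set this list apart. The median log2 fold change of the list was -0.25 at Day 3, -0.22 at Day 8 and 0.23 between the days. Akt1, the kinase downstream of the receptor and the most abundant of the list, was at 75.3 and 185 CPM in the saline libraries, 215 and 220 CPM at Day 3, and 156, 157 and 154 CPM at Day 8. Day 3 levels lay above both saline levels, with a limma log2 fold change of 0.73 ± 0.37 (SE) and an adjusted p of 0.62. Foxo1, a transcription factor that AKT holds out of the nucleus, was at 131 and 125 CPM in the saline libraries and 79.0 and 72.5 CPM at Day 3, with a limma log2 fold change of -0.89 ± 0.39 (SE) and an adjusted p of 0.62.

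In the list of Igf2 RNA and locus partners, 3 of 4 genes could be tested. H19, the imprinted noncoding RNA beside Igf2, was lower at Day 3 and was the 1 of the 3 that passed the cutoffs, beside 4.64% of all genes. It was at 36.1 and 35.3 CPM in the saline libraries, 13.7 and 17.5 CPM at Day 3, and 12.8, 28.5 and 18.9 CPM at Day 8. All 5 CXCL12 libraries lay below both saline libraries. The limma log2 fold change at Day 3 was -1.18 ± 0.39 (SE), with an adjusted p of 0.62, and it missed the cutoffs without saline replicate 1 (-1.14) or Day 3 replicate 1 (-1.004). The edgeR value at Day 8 was -0.83 ± 0.38 (SE), with an adjusted p of 0.96. Igf2bp2, which binds Igf2 mRNA and was the most abundant of this list, was at 30.8 and 41.8 CPM in the saline libraries, 23.3 and 25.6 CPM at Day 3, and 34.9, 16.7 and 25.0 CPM at Day 8. Day 3 levels lay below both saline levels, and the limma log2 fold change was -0.54 ± 0.38 (SE), with an adjusted p of 0.64.

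**Figure D4:**
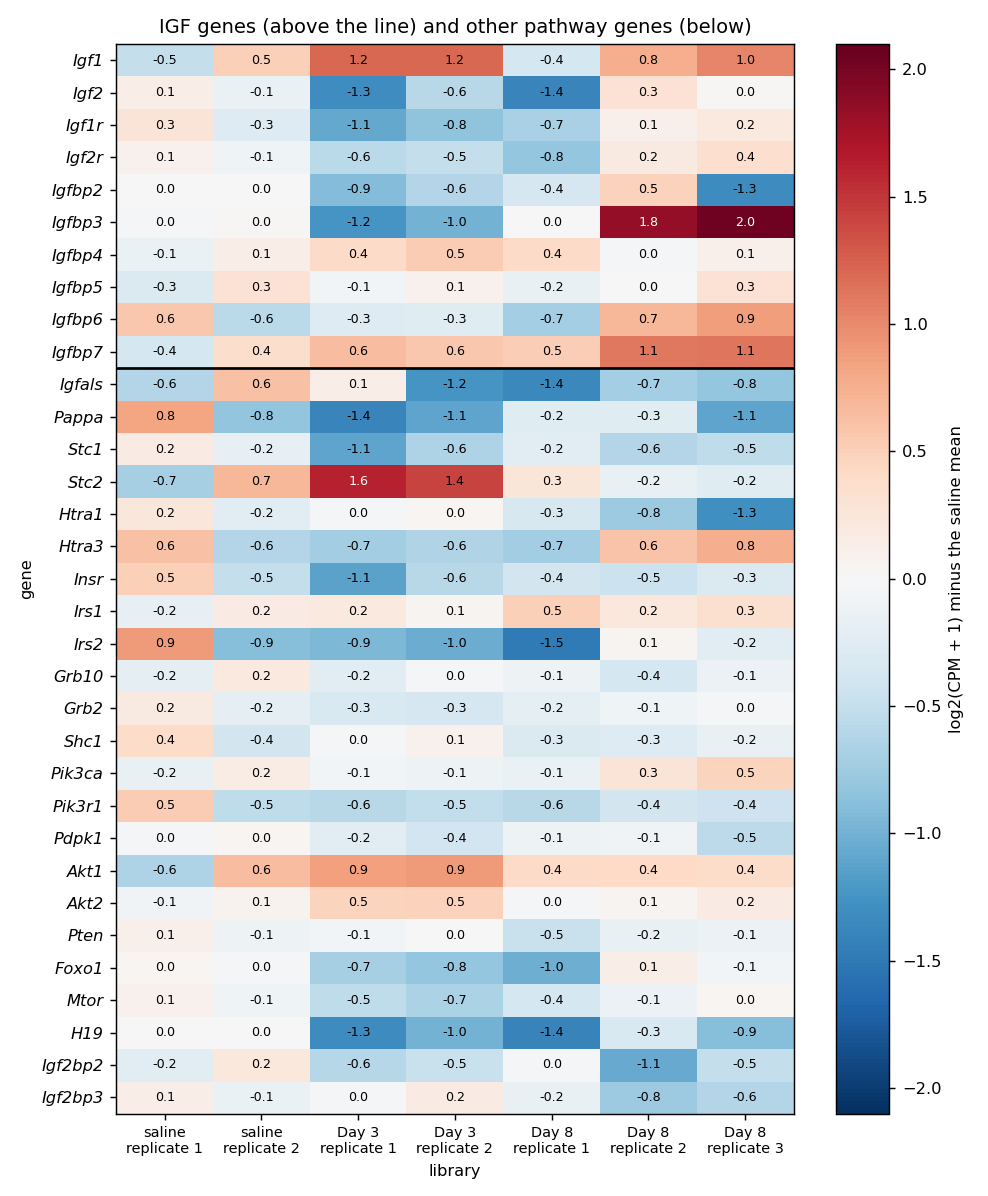
Level of the IGF genes (above the line) and of the 23 tested pathway genes (below) in each library, as log2(CPM + 1) minus the mean of the saline libraries, with red for higher and blue for lower. Igfbp3 reads -1.2 and -1.0 at Day 3 and 1.8 and 2.0 in Day 8 replicates 2 and 3, and Stc2 reads 1.6 and 1.4 at Day 3.

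The genes whose pattern was most like that of each of the 3 widest-ranging members were found over 7 libraries among 9336 genes with a mean of at least 10 CPM, by the root mean square difference of centred log2 values. Igfbp3 ranged over 3.31 on that scale, more than 91.5% of all genes. The nearest to it was F2r, a thrombin receptor, at a difference of 0.27, with 36.4 and 23.2 CPM in the saline libraries, 17.1 and 13.2 CPM at Day 3, and 29.6, 106 and 121 CPM at Day 8. Lpar3, a lysophosphatidic acid receptor with a known role in implantation, followed at 0.34, and Ankrd29 at 0.36. For Igfbp2, which ranged over 2.23, the nearest were Car14 (0.31), Sytl4 (0.32) and Ptges (0.35), the last of which encodes a prostaglandin E synthase. For Igf2, which ranged over 1.76, they were Lipa (0.19), Podxl (0.19) and Gpc3 (0.21). All these genes were read in the same libraries, and the differences are given as a description.

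Markers of hormone state and of other tissue are set beside these levels library by library. The summed level of 6 progesterone-induced uterine genes was 7.97 and 20.3 CPM in the saline libraries, 14.2 and 15.1 CPM at Day 3, and 23.2, 125 and 280 CPM at Day 8, highest in the same 2 libraries as Igfbp3. Cyp26a1 (68.1 and 168 CPM) and Lrp2 (22.1 and 71.2 CPM) made up most of the sum in these libraries, and Areg was at 1.57 and 0.72 CPM, the latter below its 0.83 CPM in Day 3 replicate 2. The summed level of 7 estrogen-induced genes was 1093 and 972 CPM in the saline libraries and 1823 and 1583 CPM at Day 3. At Day 8 it was 1041, 281 and 415 CPM. This sum was highest in the same 2 libraries as Igf1. It was lowest in Day 8 replicates 2 and 3, where Igf1 (715 and 856 CPM) was above both saline libraries (295 and 596 CPM). Sprr2f, Lcn2, Padi1 and Muc1 had their highest levels in the Day 3 libraries, whereas C3 was at 448 and 347 CPM in the saline libraries and 281 and 242 CPM at Day 3, and Ltf was highest in saline replicate 1 (161 CPM). Smooth muscle markers, 7 of 7 above 0 in every library, summed to between 1662 and 2570 CPM in the saline libraries, 3279 and 3743 CPM at Day 3, and 2005, 4482 and 4260 CPM at Day 8. Myh11 and Lmod1 did not follow this sum at Day 3. Myh11 was at 573 and 254 CPM in the saline libraries and 456 and 440 CPM at Day 3, and Lmod1 at 132 and 52.3 CPM and at 71.5 and 75.1 CPM. Stromal markers, 6 of 6 above 0, summed to 5797 and 6235 CPM, then 9278 and 9871 CPM, then 6203, 9921 and 11304 CPM in the same order, so that the 3 libraries with the lowest sums were also the 3 with the lowest Igf1. Dcn and Col1a1 made up most of these sums, and not every stromal marker followed them: Pdgfra was at 102 CPM in saline replicate 1 and at 41.7 and 47.9 CPM at Day 3, and Hand2 at 58.98 CPM and at 30.6 and 40.2 CPM. Endothelial markers, 6 of 6 above 0, summed to 215 and 155 CPM in the saline libraries and 173 and 191 CPM at Day 3. At Day 8 they summed to 146, 273 and 282 CPM, highest in the same 2 libraries as Igfbp3 and Igfbp7. Kdr did not follow this sum: it was highest in saline replicate 1 (61.8 CPM), with 47.4 and 43.7 CPM in Day 8 replicates 2 and 3. Leukocyte markers, 5 of 6 above 0 in every library, summed to 306 and 187 CPM in the saline libraries, 108 and 103 CPM at Day 3, and 78.9, 158 and 194 CPM at Day 8, lower at Day 3 than in saline, as was Igf1r. Of these, Cd3e was at 0 in both Day 3 libraries, saline replicate 2 and Day 8 replicate 3. The part of these markers in the IGF differences was not tested. In bulk tissue, a change in the share of a cell type and a change in RNA per cell cannot be told apart.

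Ovarian markers (Star, Cyp11a1 and 5 others) summed to 1253 CPM in Day 8 replicate 2 and to 9.32 CPM in Day 8 replicate 3, and Igfbp3 was at 151 and 174 CPM in these libraries. Of the 7 ovarian markers, 2 were above 0 in every library and Amh was at 0 in all Day 8 libraries. In the saline libraries they summed to 80.1 and 260 CPM with Igfbp3 at 40.7 and 42.2 CPM. At Day 3 they had their lowest sums, 5.25 and 7.35 CPM, with Igfbp3 at its lowest, 17.1 and 20.3 CPM. In Day 8 replicate 1 they summed to 28.8 CPM with Igfbp3 at 41.8 CPM. The part of ovarian tissue in the Igfbp3 levels was not tested. Adipocyte markers summed to 837 and 2516 CPM in the saline libraries, 2998 and 313 CPM at Day 3, and 244, 374 and 259 CPM at Day 8, and Igf1 was at 970 and 969 CPM in the 2 Day 3 libraries. Epithelial markers summed to 657 and 993 CPM in the saline libraries, 1112 and 1070 CPM at Day 3, and 1177, 439 and 806 CPM at Day 8. The sums ranged for oviduct markers from 246 to 797 CPM and for liver markers from 1.45 to 8.20 CPM over the 7 libraries.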

How the data were processed

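QuantSeq 3′ mRNA sequencing of uterine tissue was analysed in 7 libraries. The authors aligned reads with Bowtie2 and counted reads per gene from unique as well as multiple alignments (Bedtools coverage). Versions were not given in the sources used here, and the submitters' processing notes list the builds mm10 and hg19. Read counts per gene symbol, not normalized, were deposited for 6 libraries. The table of Day 3 replicate 1 is different: here the deposited values are log2 of a normalized count plus 1. After reversal of the log2 and division by 1.0525, 96.7% of 5503 low values lay within 0.1 of a whole number, where the tolerance alone would give 20%.

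Groups were taken from the labels. For Day 8 against saline, edgeR 4.0.16 was fitted (quasi-likelihood test, TMM, filterByExpr) on the 6 count libraries in 3 groups. Day 3 was compared with saline, and Day 8 with Day 3, by limma 3.58.1 with a trend on log2(normalized count + 1) values of all 7 libraries, scaled to one size and quantile-normalized, for genes with at least 10 normalized counts in 2 or more libraries. Fold changes on that scale understate those of low genes. P-values were adjusted over all genes tested (Benjamini-Hochberg). The biological coefficient of variation common to all genes was 42.2%. The fits were tested on simulated data. DESeq2 1.42.0 and R 4.3.3 were used as well. The comparisons share the saline or the CXCL12 libraries.

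The 10 genes, the pathway and marker lists and the tests were chosen with earlier results of these data known. All members were named, and pathway genes were named where a fold change of 2 and P 0.05 were passed or the gene was the most abundant of its list. Stc1, Pappa, Foxo1 and Igfbp1 were chosen after their values were seen.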

Additional observations from a re-analysis of the deposited data

Results flagged for a closer look

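Igfbp3 and Stc2 were flagged for passing the 2-fold and unadjusted P cutoffs between Day 3 and Day 8, in limma on the quantile-normalized values. Of all genes tested, 4.54% passed these cutoffs, and 32.6% had Day 3 and Day 8 libraries that did not overlap in CPM. Igfbp3 was higher at Day 8, by 2.46 on the log2 scale (adjusted p = 0.65, limma) and a higher level in 3 of 3 Day 8 libraries than in both Day 3 libraries. Stc2 was lower at Day 8, at -1.69 (adjusted p = 0.65, limma) and a lower level in 3 of 3. Neither passed the adjusted p of 0.1. Dixon's test for an outlying library was not run on groups of 2 or 3 libraries; the distance of Day 8 replicate 1 from the other Day 8 libraries is given in the report.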

How the results depend on the processing

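Counts of members past the cutoffs rest on single libraries. At Day 8 against saline the count of 1 became 0 with the replicate block and 0 to 2 when a library was left out: 0 without saline replicate 1, Day 8 replicate 2 or Day 8 replicate 3, and 2 (Igfbp3 and Igfbp7) without Day 8 replicate 1. At 1 it was Igfbp7 without saline replicate 2. With the replicate block, Igfbp3 at Day 8 was 0.94 and missed the cutoffs (edgeR). At Day 3 against saline the count of 1 became 2 (Igfbp3 and Igf1r) in the 2 groups alone, 0 by edgeR on 7 libraries (Igf1r -0.99), and 0 to 2 when a library was left out, with 2 (Igf1 and Igf1r) without saline replicate 2. Between the days, leaving out a library gave 1 to 4. The labels give groups the same replicate numbers, but deviations of same-numbered libraries from their group means correlated at -0.17 to 0.01 over 14800 genes, so the numbers were taken as names. Over all genes, the Day 8 count of 453 was 157 with the replicate block and 229 to 1527 with a library left out. The Day 3 count of 686 was 1040 without quantile normalization and 259 to 2828 with a library left out. The count of 672 between the days was 418 with the replicate block and 257 to 1639 with a library left out. The counts of 0 under an adjusted p of 0.1 became 49 by DESeq2 and 0 to 15 with a library left out at Day 8, 36 without a filter and 0 to 2358 at Day 3, and 28 without a filter, 3 in the 2 groups alone and 0 to 468 between the days. The highest of these came without saline replicate 2 (2358) and without Day 8 replicate 1 (15 and 468). By edgeR on 7 libraries, 21.2% of the Day 3 calls and 68.0% of the calls between the days were higher, where the values reported above gave 42.9% and 48.4%. The causes were not tested.

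Of 339 alternative values of single genes, 305 kept their direction and their side of the cutoffs, 18 changed direction, 9 lost a call and 7 gained one. All 18 were differences that had missed the cutoffs. At Day 8 against saline these were Igf2r at 0.013 without a filter and 0.00045 with at least 10 counts, Igfbp2 at 0.075 and Igfbp5 at -0.066 with the replicate block, and Igfbp4 at -0.10 and Igfbp5 at -0.13 by limma. With a library left out, the Day 8 values ran from -0.57 to 0.18 for Igf2, -0.34 to 0.19 for Igf1r, -0.24 to 0.27 for Igf2r, -1.07 to 0.16 for Igfbp2, -0.24 to 0.39 for Igfbp5 and -0.12 to 1.03 for Igfbp6. The Day 3 values ran from -1.002 to 0.29 for Igfbp6 and -0.14 to 0.46 for Igfbp7, and Igfbp2 between the days ran from -0.12 to 0.96. Igfbp2 and Igf2, with 8 to 173 counts in the count libraries, are the members that depth limits most.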
